A study of Arabidopsis thaliana with 12 samples.

Results

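PDF1.2, PDF1.2b and PDF1.4 are plant defensin genes of Arabidopsis thaliana, and AT2G43620 encodes a protein of the chitinase family. They were followed on 12 Affymetrix ATH1 arrays through 4 of the 22810 probe sets, 1 probe set for each gene and none shared with another gene in the platform's probe table. The genes were chosen by their signals over treatment, genotype and replicate number, and those signals therefore describe the genes, with no test of them given. All 4 probe sets were among the 15922 kept after the 30% of non-control probe sets with the lowest mean log2 signal were left out.

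The study concerned ROP10, a small GTPase of the plant ROP family, in the response to the hormone abscisic acid (ABA). Whole seedlings of the wild type Ws and of the mutant rop10-1, a single allele, were grown for 7 days in shaken liquid MS medium with 3% sucrose and then kept for 4 hours in liquid MS with either 1 µM ABA or the solvent DMSO (mock). The 4 groups, Ws mock, Ws ABA, rop10-1 mock and rop10-1 ABA, held 3 arrays each, numbered 1, 2 and 3 and described as biological replicates. About 100 mg of seedlings went into each extraction, so every array pooled many plants and organs.

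Plant defensins are small, cysteine-rich, secreted peptides that act against fungi, and chitinases cut chitin, a polymer of fungal cell walls. PDF1.2 is the usual marker of the branch of defence that jasmonate and ethylene switch on together through the transcription factors ERF1 and ORA59. In leaves of older plants ABA is known to act against that branch, through the transcription factor MYC2.

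PDF1.2 (AT5G44420, probe set 249052_at) had 40.1% of non-control probe sets below its mean log2 signal. PDF1.2b (AT2G26020, probe set 257365_x_at) is a close copy of it at another locus, and 59.3% of probe sets lay below. The suffix of that probe set marks probes that can match other transcripts, so its signal may include related defensins. PDF1.2c and PDF1.3, further close relatives that neighbour PDF1.2 and PDF1.2b in the RefSeq gene order, had no probe set assigned to them alone. PDF1.4 (AT1G19610, probe set 261135_at) is a more distant defensin of the same class, with 68.1% of probe sets below it. AT2G43620 (probe set 260556_at), with 89.1% below, lies at the end of a run of genes of glycoside hydrolase family 19 on chromosome 2. These ranks depend on the brightness of the probes as well as on transcript level, so the genes are not compared in level. The signal is the deposited probe set intensity on a linear scale.

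Replicate number divided the signals of these genes more than treatment or genotype did. For each of the 4 genes, the 4 arrays numbered 1 all lay above the other 8 arrays. Among all tested probe sets 2.73% had that order, and this figure is given as background only, because the pattern over replicate number was part of the choice of genes.

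PDF1.2 in Ws gave signals of 499.1, 121.5 and 76 on mock arrays 1, 2 and 3, and of 405.6, 80.1 and 34.3 on the ABA arrays. In rop10-1 the signals were 281.8, 64.1 and 79.5 in mock and 271.5, 41.7 and 48.7 with ABA. Array 1 was the highest in every group, and the other 8 arrays stayed at or below 121.5. Array 1 exceeded the mean of arrays 2 and 3 by 2.2 on the log2(signal + 16) scale (SE of the fit 0.18), a 4.59-fold difference. The lowest array numbered 1 was still 2.23 times the highest of the others.

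PDF1.2b in Ws gave 1051.9, 240.2 and 155 in mock and 801.8, 206.3 and 160.2 with ABA. The rop10-1 arrays gave 603.8, 142.7 and 213.8 in mock and 583.1, 129.8 and 176.3 with ABA. The order of the arrays resembled that of PDF1.2, including the position of number 3, which was below number 2 in both Ws groups and above it in both rop10-1 groups. The log2 difference of number 1 from the mean of numbers 2 and 3 was 1.98 (SE 0.16), or 3.96-fold. Numbers 2 and 3 differed by 0.00 on average (SE 0.18).

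PDF1.4 showed the same high arrays with another order among the rest. Its signals in Ws were 1370.7, 221.1 and 435 in mock and 835.9, 141.2 and 187 with ABA. In rop10-1 they were 1376.6, 354.2 and 481.3 in mock and 722.7, 152.6 and 270 with ABA. Number 1 was highest and number 2 lowest in all 4 groups. Number 3 exceeded number 2 in all 4 groups for 13.3% of tested probe sets. The log2 difference of number 1 from the others was 1.95 (SE 0.11, 3.85-fold), and number 2 lay below number 3 by a log2 difference of -0.62 (SE 0.13). The gap was narrowest for this gene, whose lowest array numbered 1 was 1.5 times the highest of the other 8.

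AT2G43620 had the widest gap. In Ws the signals were 4544.1, 519.6 and 651.6 in mock and 4019.5, 857.9 and 709 with ABA. In rop10-1 they were 4453.4, 459.4 and 782.8 in mock and 7945.1, 626.2 and 1203.6 with ABA. Arrays numbered 1 were all at 4019.5 or above, while the highest of the other 8 was 1203.6, 3.34 times below the lowest of them. The log2 difference of number 1 from the mean of numbers 2 and 3 was 2.83 (SE 0.16), a 7.09-fold difference. The array of rop10-1 with ABA numbered 1 was the highest of all 12.

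**Figure D1:**
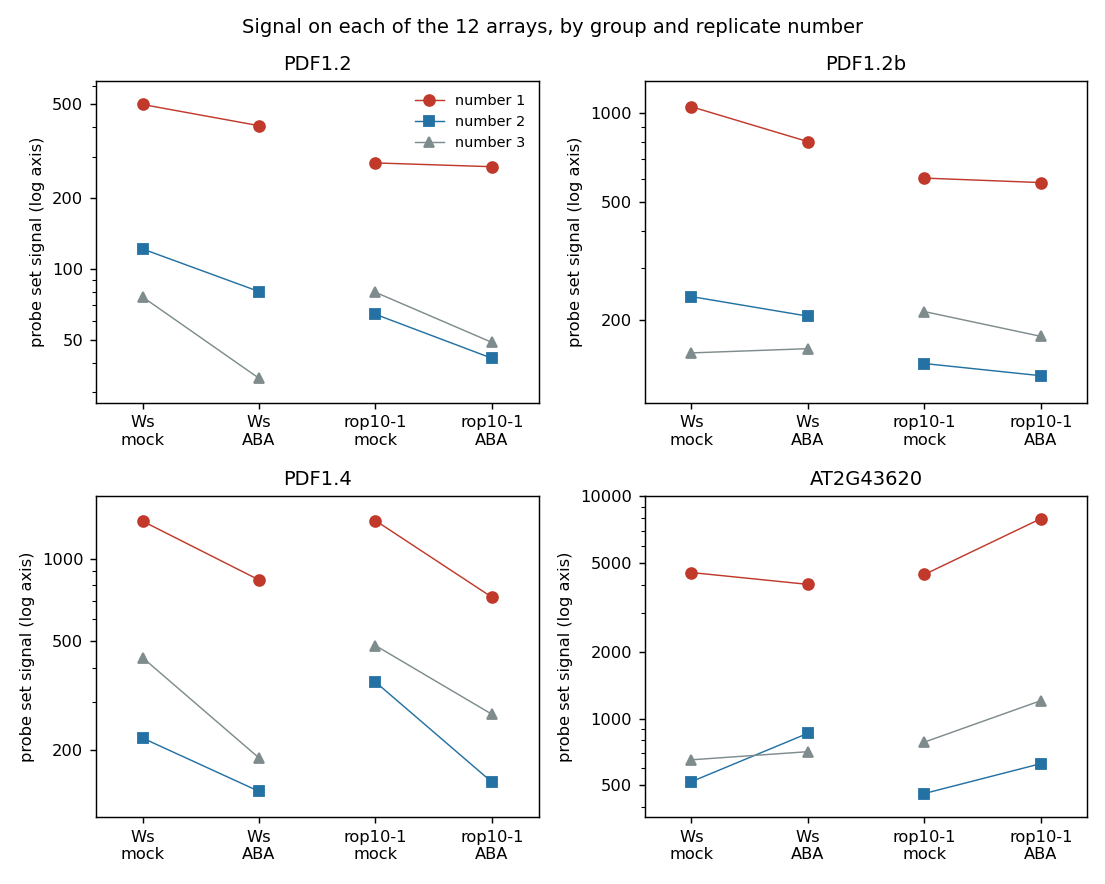
Probe set signal (log axis) of PDF1.2, PDF1.2b, PDF1.4 and AT2G43620 on each of the 12 arrays. Red circles, blue squares and grey triangles are replicate numbers 1, 2 and 3, and lines join mock and ABA arrays of the same number within a genotype. In every panel the 4 red circles lie above the other 8 points.

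As further background, at least a 2-fold excess of number 1 over the mean of numbers 2 and 3 was found for 0.973% of tested probe sets, and at least a 3-fold excess for 0.226%. All 4 genes had more than a 3-fold excess. An F-test of replicate number in limma, adjusted over all probe sets, called 20% of them, and 8.74% were both called and highest at number 1.

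Replicate number took 87.3% of the sum of squares of PDF1.2 over the 12 arrays on the log2 scale, 91.2% of that of PDF1.2b, 80.0% of that of PDF1.4 and 93.6% of that of AT2G43620. The median over all tested probe sets was 25.1%. The genotype and treatment groups took 7.77%, 3.54%, 18.1% and 3.49% for the 4 genes in the same order, against a median of 36.2%. PDF1.4 was the gene of the 4 with the largest share for the groups. Nearly all of it, 17.2%, was treatment, against a median of 14.9% over all tested probe sets. The sources used here do not say what the replicate number stands for, such as a culture, a day or a hybridisation.

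**Figure D2:**
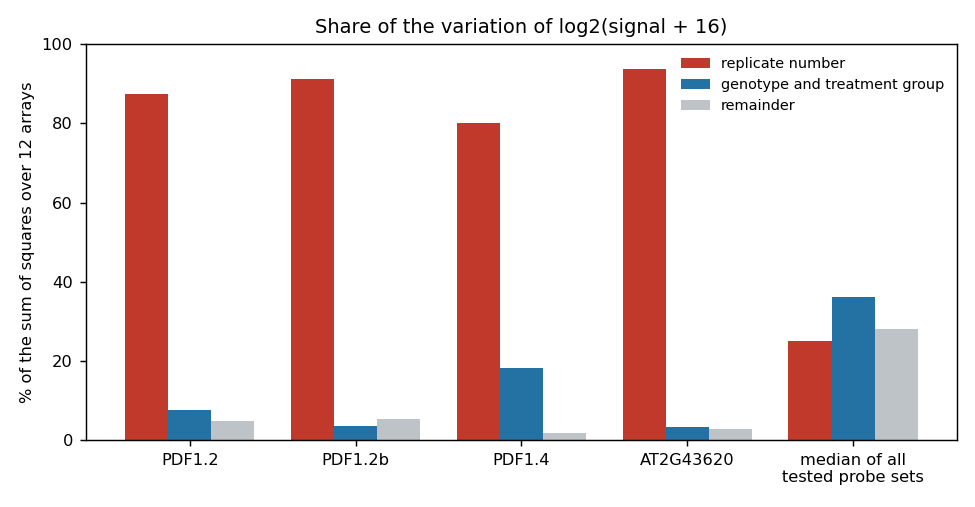
Share of the sum of squares of log2(signal + 16) over the 12 arrays, in percent, that falls to replicate number (red), to the 4 groups (blue) and to the remainder (grey). The replicate number took 80.0% to 93.6% for the 4 genes, and the rightmost bars are medians over all tested probe sets, which are taken separately for each share.

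The groups overlapped for all 4 genes in every comparison of treatment or genotype. This overlap followed from the replicate pattern, because each group held an array numbered 1, which lay above all arrays of other numbers. It therefore tells nothing about ABA or genotype. The group means of log2(signal + 16) for PDF1.2 ran in the order Ws mock 7.55 ± 1.3 (SD, n = 3), rop10-1 mock 7.04 ± 1.03, Ws ABA 6.99 ± 1.57 and rop10-1 ABA 6.68 ± 1.29. No neighbours in this order differed by more than the SD within a group. The order was Ws mock, Ws ABA, rop10-1 mock and rop10-1 ABA for PDF1.2b, with the highest mean at 8.49 ± 1.39 and the next at 8.31 ± 1.19. For PDF1.4 rop10-1 mock was highest at 9.31 ± 1.00, followed by Ws mock at 9.05 ± 1.29, rop10-1 ABA at 8.36 ± 1.08 and Ws ABA at 8.23 ± 1.31. For AT2G43620 the means ran from 10.85 ± 1.89 in rop10-1 ABA over 10.42 ± 1.36 in Ws ABA to 10.22 ± 1.69 in rop10-1 mock and 10.20 ± 1.70 in Ws mock. In none of these orders was a step between neighbours larger than the SD within either group. Each SD includes the differences between replicate numbers, which every group shares, so this comparison cannot decide on ABA or genotype.

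The comparison of ABA with mock asked how the hormone altered each gene. The difference of group means in Ws was -0.56 for PDF1.2 (SE of the fit 0.88), -0.18 for PDF1.2b (SE 0.79), -0.82 for PDF1.4 (SE 0.79) and 0.22 for AT2G43620 (SE 1.11), all on the log2 scale. In rop10-1 it was -0.36, -0.14, -0.95 and 0.63, with the same errors. In mean log2 signal the defensins were thus lower and the chitinase higher with ABA in both genotypes, with no test given. With replicate number as a block in the fit the differences stayed as they were and their SEs became 0.24, 0.21, 0.15 and 0.21. Both sets of SEs are given as description and not as a test, because the genes were chosen by their signals over treatment. Leaving out a single array could turn the sign of the unblocked difference in both genotypes for every gene but PDF1.4. Such a step leaves the replicate numbers unbalanced between the groups, so the move includes differences between numbers. As background, limma called 6.54% of all tested probe sets in each genotype at an adjusted p under 0.05, or 15.7% in Ws and 15.6% in rop10-1 with the block, and the groups of 3 did not overlap for 21.2% in Ws and 27.9% in rop10-1.

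Arrays of the same number gave 6 pairs of ABA and mock. PDF1.4 was lower with ABA in 6 of 6 pairs, by log2 differences from -1.15 to -0.59, so that the ABA signal was between 0.43 and 0.64 of the mock signal. PDF1.2 was also lower in 6 of 6 pairs, with a mean of -0.46 and a range from -0.87 to -0.05. Its smallest difference was in rop10-1 number 1, where the signal was 0.96 of mock. Of all tested probe sets, 17.3% were lower in all 6 pairs, so the order alone is a common one in this table.

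PDF1.2b was lower with ABA in 5 of 6 pairs and the exception, Ws number 3, was higher by 0.04. Its mean over the pairs was -0.16, smaller in size than that of PDF1.2 in spite of the likeness of the 2 genes. AT2G43620 was higher with ABA in 5 of 6 pairs, with a mean of 0.42, and the exception was Ws number 1 at -0.18. Its largest difference was 0.83, a ratio of 1.78, in rop10-1 number 1.

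**Figure D3:**
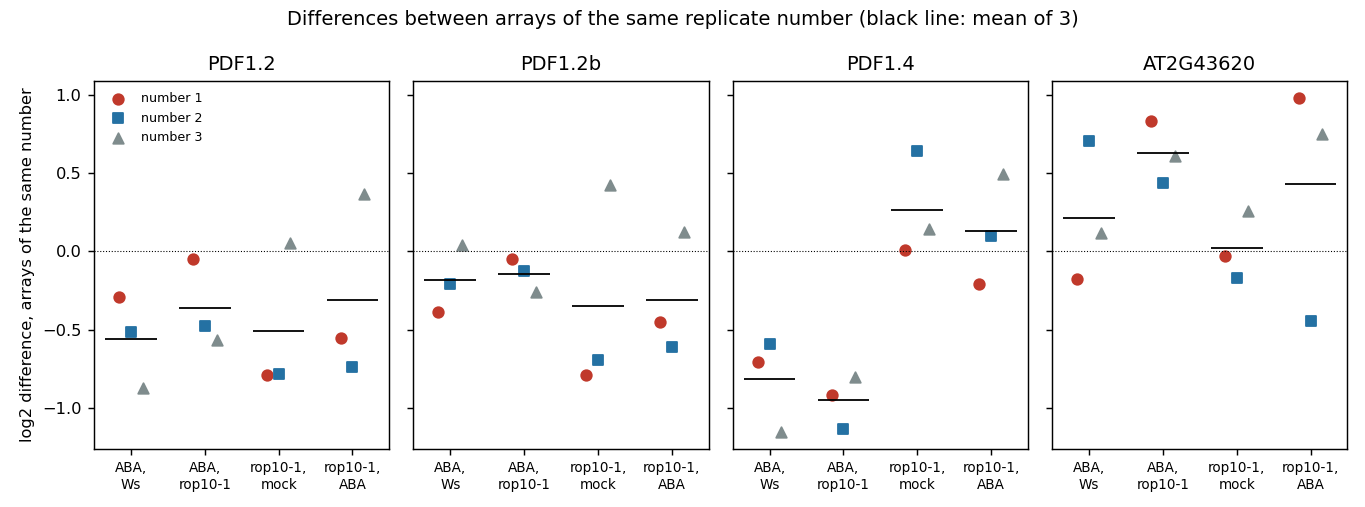
Difference of log2(signal + 16) between arrays of the same replicate number, for ABA minus mock in each genotype and rop10-1 minus Ws in each treatment. Points are single pairs, coloured and shaped by number as marked, black lines are means of 3 pairs and the dotted line is 0. All 6 ABA pairs of PDF1.2 and PDF1.4 lie below 0, whereas the genotype pairs lie on both sides of 0 for every gene.

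The comparison of rop10-1 with Ws asked what the mutant allele altered. In mock the log2 difference was -0.51 for PDF1.2, -0.35 for PDF1.2b, 0.26 for PDF1.4 and 0.02 for AT2G43620. The SEs were 0.88, 0.79, 0.79 and 1.11 in the same order. With ABA the differences were -0.31, -0.31, 0.13 and 0.43 with the same errors. With the replicate block the SEs were 0.24, 0.21, 0.15 and 0.21. These SEs are given as description and not as a test, because the genes were chosen by their signals over genotype. As background, limma called 0.0314% of probe sets between the genotypes in mock and 0.0188% with ABA, and groups did not overlap for 9.4% and 10.9%.

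The pairs of the same number did not share a direction for any of the 4 genes. PDF1.2 was lower in rop10-1 in numbers 1 and 2, by -0.79 and -0.78 in mock and -0.55 and -0.74 with ABA. In number 3 it was higher, by 0.05 in mock and 0.36 with ABA. PDF1.2b divided in the same way, lower in the 4 pairs of numbers 1 and 2 and higher in the 2 pairs of number 3, where the differences were 0.43 and 0.13. The genotype difference of both probe sets, which may not be separate readings, thus differed in sign between replicate numbers and not between treatments.

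PDF1.4 was higher in rop10-1 in 5 of 6 pairs, with a mean of 0.20 and a range from -0.21 to 0.64. AT2G43620 was higher in 3 pairs and lower in 3, from -0.44 to 0.98. Of all tested probe sets, 4.26% were lower and 5.15% higher in rop10-1 in all 6 pairs.

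The interaction, the ABA difference in rop10-1 minus that in Ws, was 0.20 for PDF1.2 (SE 1.24), 0.04 for PDF1.2b (SE 1.12), -0.13 for PDF1.4 (SE 1.12) and 0.41 for AT2G43620 (SE 1.57). With the replicate block the SEs were 0.33, 0.30, 0.22 and 0.30. Over the table limma called 0 probe sets for the interaction, with 301 at an unadjusted p under 0.05, and with the block 0 and 803.

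Over all 12 arrays the log2 signals of the 4 genes ran together, with Pearson r from 0.80 for PDF1.4 and AT2G43620 to 0.98 for PDF1.2 and PDF1.2b. These points share replicate numbers and arrays, so r is given as a description. When the 4 arrays numbered 1 were left out, a step chosen after the values were seen, r over the other 8 was 0.73 for PDF1.2 and PDF1.2b and between -0.29 and 0.28 for the other 5 pairs of genes. After the means of group and number were removed, PDF1.2 and PDF1.2b still had r = 0.78 over 12 arrays. For the other 5 pairs that r lay between -0.16 and 0.47.

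Of 12 further defensins listed, 9 had a probe set of their own and 4 were tested. None of the 4 was called by replicate number with number 1 highest, against 8.74% of all probe sets, a share at which a count of 0 says little. PDF2.1, PDF2.2, PDF2.3 and PDF2.5 belong to the second defensin class. The log2 difference of number 1 from the mean of numbers 2 and 3 was -0.49 for PDF2.1 (SE 0.12, limma F-test adjusted p = 0.0208), which was lowest at number 1. It was 0.03 for PDF2.2, 0.20 for PDF2.3 and 0.09 for PDF2.5, none of them called.

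ABA called 0 of these 4 defensins in either genotype by limma, against 6.54% of all probe sets. PDF2.1 was higher by 0.59 in both genotypes (adjusted p = 0.234 in Ws and 0.248 in rop10-1). With the replicate block these became calls, at adjusted p = 0.0268 and 0.0276. PDF2.5 differed by -0.62 in rop10-1 (adjusted p = 0.092, and 0.0419 with the block) and by -0.43 in Ws (0.246, and 0.144 with the block). PDF1.1, the member of the first class with a probe set of its own that is not among the 4 genes, stayed between 1.3 and 13.8 on all arrays and was below the filter, as were PDF2.4, PDF2.6, PDF3.1 and PDF3.2.

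Of 13 further chitinases of family 19 listed, 9 had a probe set of their own and 6 were tested. Replicate number was called for 3 of these 6, all highest at number 1, against 8.74% of all probe sets. AT2G43570, a chitinase gene named CHI in the probe table, was higher at number 1 by 0.84 (SE 0.13, limma adjusted p = 0.0024). AT2G43590 was higher by 1.00 (SE 0.22, adjusted p = 0.00882) and AT4G01700 by 0.70 (SE 0.13, adjusted p = 0.00586). These log2 differences were below the 2.83 of AT2G43620, and that difference between genes was not tested. AT2G43610, next to AT2G43620 in the gene order, differed by 0.49 (adjusted p = 0.0785), AT3G47540 by 0.54 (0.167) and AT1G02360 by 0.13 (0.304).

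AT2G43570, in the same run of genes as AT2G43620, rose with ABA, and no test compared it with that gene. Its signals in Ws were 209.1, 105.9 and 158.2 in mock and 1378.5, 794 and 694.5 with ABA. In rop10-1 they were 276, 144.1 and 207.6 in mock and 2682.7, 898.2 and 1423.7 with ABA. The groups did not overlap in either genotype, and number 1 was the highest array of all 4 groups. The log2 difference with ABA was 2.46 in Ws (SE 0.39, adjusted p = 0.00189) and 2.80 in rop10-1 (adjusted p = 0.000807).

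AT2G43570 was the 1 of 6 tested chitinases of family 19 called with ABA in each genotype, against 6.54% of all probe sets. AT3G47540 differed by 1.2 in rop10-1 (adjusted p = 0.0587, and 0.0111 with the replicate block) and by 0.77 in Ws (0.226, and 0.0775 with the block). AT4G01700 differed by -0.53 in Ws and -0.34 in rop10-1, and AT2G43590, AT2G43610 and AT1G02360 by values from -0.26 to 0.46, none of them called. AT1G56680, AT2G43580 and AT2G43600 were below the filter. Of 10 chitinases of family 18, 5 had a probe set and 1 was tested, AT4G19810, which rose by 1.80 in Ws (adjusted p = 0.000283) and 2.04 in rop10-1 (adjusted p = 0.000123).

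**Figure D4:**
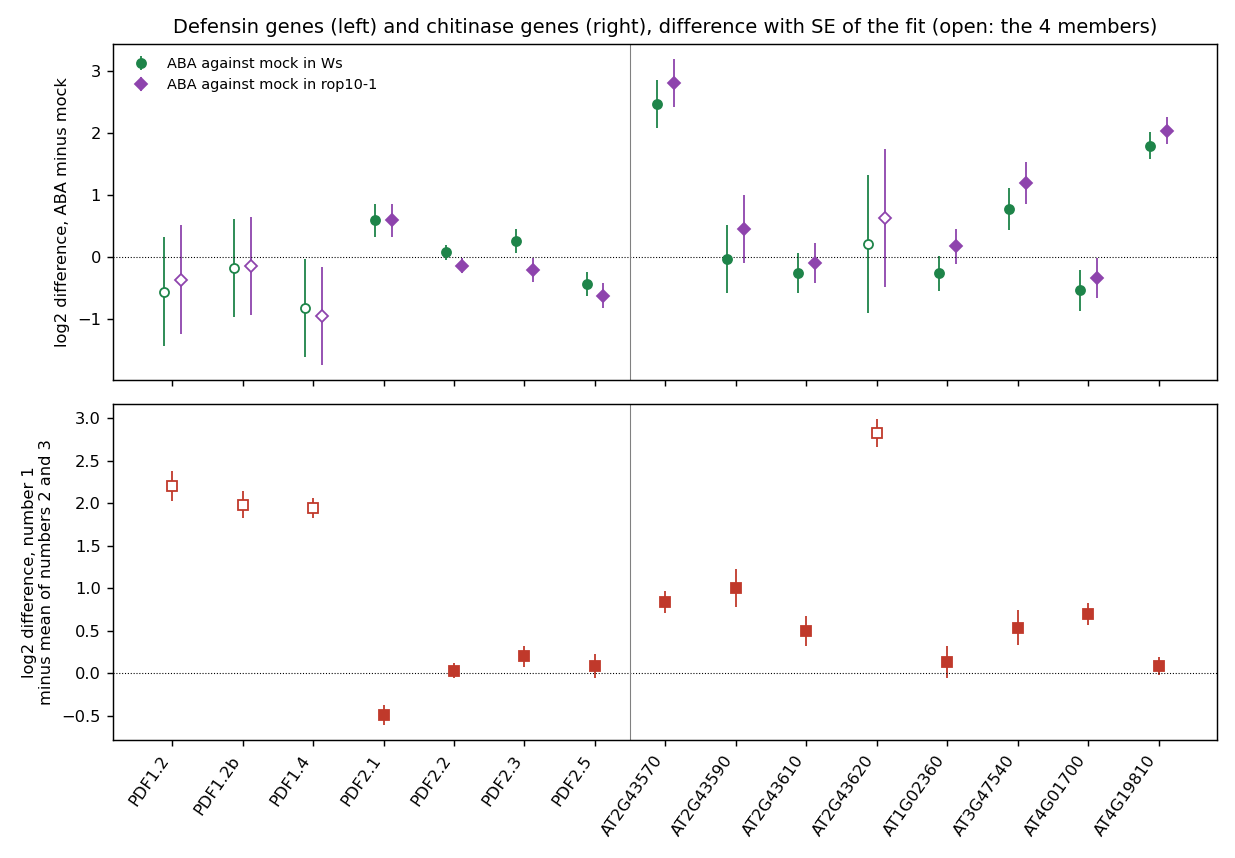
Log2 difference with the SE of the fit for defensins (left of the line) and chitinases (right of it). The upper panel gives ABA minus mock in Ws (green circles) and rop10-1 (purple diamonds), and the lower panel gives number 1 minus the mean of numbers 2 and 3. Open symbols are PDF1.2, PDF1.2b, PDF1.4 and AT2G43620, whose lower-panel values of 1.95 to 2.83 lie above those of the other genes shown, and AT2G43570 and AT4G19810 are the 2 genes called with ABA.

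The regulators that act upstream of PDF1.2 could be named only in small part from the annotation used. It lists no gene for 6885 of the 15922 tested probe sets, so genes not followed here may still be on the arrays. Of 86 genes in 5 lists of jasmonate, ethylene, ERF and salicylic acid genes, 7 were tested through a probe set of their own. None of the 7 was called for ABA, against 6.54% of all probe sets, or for genotype or the interaction, where at most 0.0314% were called. Replicate number was called for GRXC9 and ORA47, 2 of 7 against 20% of all probe sets. Such counts are near the background. GRXC9, a glutaredoxin induced by salicylic acid that represses PDF1.2 when overexpressed, was higher at number 1 by 0.87 (SE 0.20, adjusted p = 0.0114). ORA47, an ERF-type regulator of jasmonate synthesis genes, was called at adjusted p = 0.0103 with number 1 between the others. OPCL1, an enzyme of jasmonate synthesis, MYC3 and MYC4, relatives of MYC2, EIN3, the main ethylene transcription factor, and WRKY53 were not called by replicate number. ERF1, ORA59 and MYC2 were not analysed here.

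All 5 tested ABA-induced marker genes rose with ABA in both genotypes by limma, against 4.05% of all probe sets called higher in Ws and 4.03% in rop10-1. The list was chosen with earlier results of these data known, so it is no independent check of the treatment. The call of COR47 in Ws (0.98, adjusted p = 0.0385) was lost with quantile normalization and with no low filter. LEA4-5, a late embryogenesis abundant protein, rose by 5.60 in Ws and 5.79 in rop10-1 (adjusted p = 2.48e-07 and 3.27e-07).

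Genes beside the 4 on the chromosomes, 3 protein-coding genes on each side, were looked up after the values had been seen. Of these 24 neighbours 10 were tested and 3 were called by replicate number, near the 20% of all probe sets. They were AT5G44400 near PDF1.2, at 1.11 (SE 0.13, adjusted p = 0.000669), AT2G43590, and AT2G43630 next to AT2G43620, at -0.33 (SE 0.08, adjusted p = 0.0279). Among the tested neighbours of AT2G43620 the differences thus went both ways.

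The genes most like each of the 4 were sought among tested probe sets with a single gene, by Pearson r over 12 arrays, both of log2 signals and of their deviations from the group means, with 5 taken each time. The search named 22 genes outside the 4. Since they were chosen for likeness, their values are given without a test. For PDF1.2 and PDF1.2b the most alike in signal were each other, then AT4G39840 (r = 0.96 and 0.97) and AT5G19110, an aspartyl protease family gene (r = 0.96 and 0.97). AT5G19110 had signals from 234.3 to 409.7 on the arrays numbered 1 and from 73.3 to 103.2 on the other 8.

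For AT2G43620 the most alike in signal were AT4G22470, of the lipid transfer protein type, and AT1G62790, also of that type, each with r = 0.96. AT4G22470 lay between 2470.8 and 4895.1 at number 1 and between 346.2 and 1099.2 elsewhere. AT4G12500, a further gene of the lipid transfer type, lay between 2401.5 and 4838.7 at number 1 and between 513 and 1021.5 elsewhere. For PDF1.4 the most alike was AT5G62730 (r = 0.96), with 125.3 to 272.3 at number 1 and 40.5 to 102.7 elsewhere.

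A high r did not mean a difference of like size. The excess of number 1 among the 22 genes ran from 0.16 for AT4G32140 to 2.75 for AT4G22470 on the log2 scale. AT4G32140 had r = 0.99 with PDF1.2 in deviations, yet its signals of 364.3 to 441.1 at number 1 overlapped those of 319 to 402 elsewhere. Over all tested probe sets, r of log2 signals above 0.9 was reached by 42 for PDF1.2, 66 for PDF1.2b, 19 for PDF1.4 and 41 for AT2G43620.

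**Figure D5:**
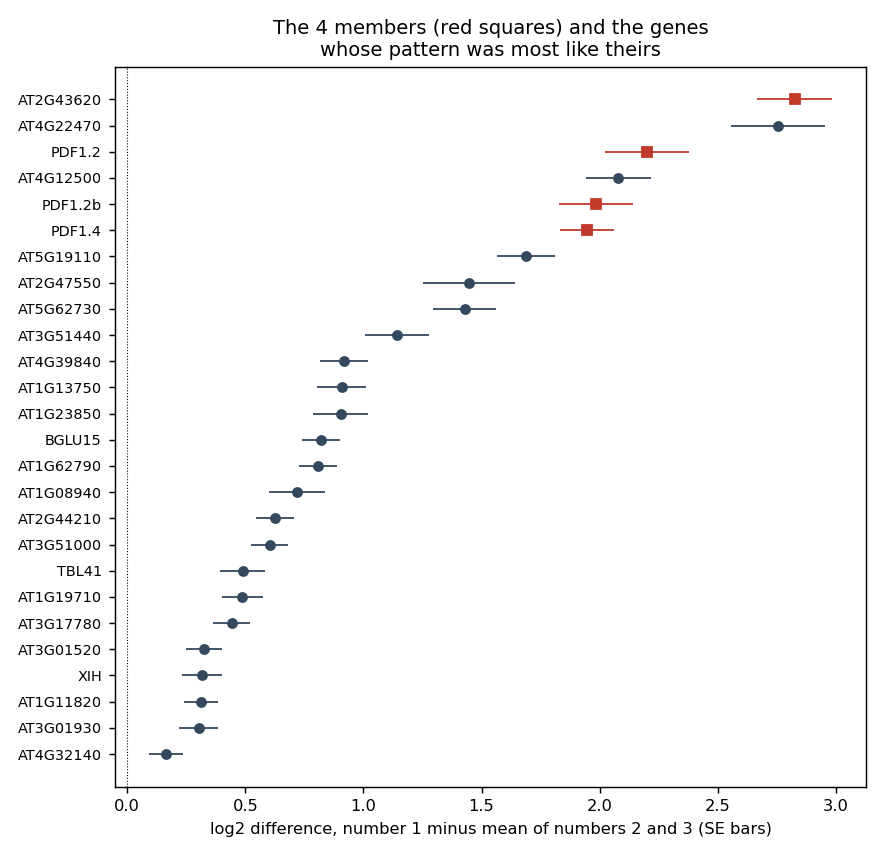
Log2 difference of number 1 from the mean of numbers 2 and 3, with the SE of the fit, for the 4 genes (red squares) and the 22 genes of most similar pattern (dark circles), in order of size. AT4G22470 at 2.75 and AT4G12500 at 2.08 lie among the 4 genes, and AT4G32140 at 0.16 is the lowest.

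The arrays numbered 1 overlapped the others in RNA end ratios and organ markers, while their median signals were mostly higher. The 2% trimmed mean of the signal was close to 500 on all 12 arrays. The median lay between 191 and 203 at number 1 and between 180.15 and 194.65 at the others. At number 1 the medians of Ws mock (203.3), Ws ABA (195.6) and rop10-1 mock (195) lay above those of all arrays with other numbers. Only rop10-1 ABA (190.9) lay within their range. Whether this shift is linked to the signals of the followed genes was not tested. The log2 ratios of 3′ to 5′ control signals overlapped between number 1 and the others, for actin between 0.24 and 0.59 against 0.28 and 0.50. Of 15 marker genes listed for light-harvesting tissue, roots, root hairs, guard cells and seeds, 7 had a probe set of their own. The summed light-harvesting signal ran from 14647 to 15913 at number 1, from 13538 to 14836 at number 2 and from 15015 to 19193 at number 3. Number 1 overlapped both of the others, which did not overlap each other, and LHCB4.2 was called by replicate number (adjusted p = 0.0103) with a number 1 difference of -0.01. The summed signals of roots, root hairs and guard cells overlapped between all numbers. LHCB4.1 (11082 to 14595) and the root gene PYK10 (12433 to 16186) were high on every array, as whole seedlings hold both shoots and roots. In such bulk samples fewer cells of a type and less RNA per cell cannot be told apart.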

How the data were processed

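RNA of 12 seedling samples was hybridised to ATH1 arrays after biotin labelling of about 10 µg, per the labels. Each deposited value is a linear intensity of a probe set. GCOS 1.1.1 was used per the submitters' processing notes, with settings that the sources used here do not state. Array number limits the precision. Groups and replicate numbers came from the titles. Names came from a platform annotation that may be outdated (13513 with a single gene, 503 with several, 8730 with none listed). RefSeq genes (assembly TAIR10.1) gave neighbour order only.

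Intensities were taken as log2(value + 16), which understates differences of low genes. After 64 controls and the lowest 30% were left out, limma 3.58.1 in R 4.3.3 fitted 4 group means with an intensity trend. Benjamini-Hochberg adjustment ran over all 15922 probe sets, two-sided, with calls at an adjusted p under 0.05. Replicate number was tested by an F-test in a model of group and number. Scripts were tested on simulated data.

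Same-numbered arrays deviated together: all 18 correlations of deviations from group means were between 0.22 and 0.71, against -0.48 to 0.11 for the 36 pairs of different numbers, so the numbers were taken to pair the arrays. Deviations within a group cancel out by construction, so a positive correlation within numbers lowers the correlation between different numbers. The range for different numbers is therefore no separate support. The pairing comes from this check of the data.

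The genes, gene lists and alternatives were chosen with earlier results of these data known. Named were the 4 genes, the other defensins and family 19 chitinases, up to 4 called genes of each other list, and the 5 nearest genes by each measure of likeness. No probe set was assigned to ROP10 alone, and the mutated gene was not analysed here. The alternatives were pseudocounts of 1 and 64, other filters, quantile normalization, no intensity trend, the replicate block and arrays left out.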

Additional observations from a re-analysis of the deposited data

How the results depend on the processing

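The excess of number 1 stayed above 0 for all 4 genes when each array was left out in turn, from 1.84 to 2.03 for PDF1.4, from 1.86 to 2.08 for PDF1.2b, from 2.07 to 2.34 for PDF1.2 and from 2.71 to 2.99 for AT2G43620, and a pseudocount of 64 gave 1.69 for PDF1.2. The unblocked differences of group means for ABA and genotype moved more. A single left-out array also leaves the replicate numbers unbalanced between the groups, so these moves include differences between numbers. Leaving out single arrays moved the ABA difference of PDF1.2 from -1.43 to 0.17 in Ws and from -1.11 to 0.23 in rop10-1, of PDF1.2b from -0.86 to 0.60 and from -0.76 to 0.42, and of AT2G43620 from -0.56 to 1.19 and from -0.43 to 1.58, while PDF1.4 stayed between -1.57 and -0.12 and between -1.53 and -0.38. The lowest and highest of these values came without an array numbered 1, and arrays of numbers 2 and 3 turned signs too, as for AT2G43620 in Ws (-0.35 without Ws mock number 2). Without all 4 arrays numbered 1 the ABA differences kept their signs, at -0.69 and -0.52 for PDF1.2 and 0.41 and 0.52 for AT2G43620, and without all numbered 2 AT2G43620 in Ws was -0.03. The genotype differences turned sign for all 4 genes, for AT2G43620 from -0.93 to 1.00 in mock and from -0.63 to 1.21 with ABA.

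Counts over all probe sets depended on the replicate block and on the arrays used, and the cause was not tested. With the block, ABA called 2495 probe sets in Ws and 2486 in rop10-1, in place of 1042 and 1041, and the genotypes differed for 43 with ABA, in place of 3. Without all arrays numbered 2 the ABA counts were 369 and 363 and the genotype count with ABA was 17, and without all numbered 3 they were 265, 293 and 0. Leaving out single arrays gave 677 to 1092 in Ws, 611 to 1188 in rop10-1, 1736 to 3138 for replicate number (3192 with all arrays), 0 to 5 for genotype in mock and 0 to 4 with ABA. The 5 genotype calls in mock became 3 without a low filter, 2 with the lowest 50% left out, 1 without number 1 and 0 without number 2 or number 3. The block added 1 genotype call among the listed genes, COR15B with ABA. Beyond the values given here and in the report, the block changed no other call for a defensin or chitinase. The F-test of replicate number was not run with a whole number left out. AT2G43570 with ABA in Ws lost its call without all arrays numbered 3 (log2 difference 2.68). COR47 in Ws lost its call in 6 and COR15B in rop10-1 in 3 of 12 single leave-outs, both also without all numbered 2 or all numbered 3, and COR47 in rop10-1 without all numbered 2 (1.26). AT3G47540 in rop10-1 gained a call in 3 single leave-outs. Among the results of listed genes that were called in at least 1 setting, none turned its direction. Results never called were left out of this check.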
